A study of Mus musculus with 12 samples.

Results

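Ch25h, the gene for cholesterol 25-hydroxylase, was followed over macrophages of 4 kinds: wild type (WT) or lacking Atf3, each with or without oxidised low-density lipoprotein (oxLDL). It was read as 1 probe set, ENSMUST00000050562, of the 74007 on the array. The gene was chosen by its measured levels in these same groups, so those levels are given as a description with no test. The cells were macrophages grown with recombinant human M-CSF from femoral marrow of 12 female C57BL/6J-background mice, aged 8 to 12 weeks and fed normal chow. Of these mice 6 were wild type and 6 were Atf3-/-, and the labels do not give the form of the deletion. For each genotype, cells of 3 mice stayed unstimulated and cells of 3 others received oxLDL, human LDL oxidised with copper sulphate, at 25 ug/mL of protein for 24 h. Each mouse gave 1 Affymetrix Mouse Exon array, and the values are log2 levels.

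Ch25h is an enzyme of the endoplasmic reticulum that hydroxylates cholesterol to 25-hydroxycholesterol, an oxysterol. That product holds back the processing of the SREBP factors, which drive cholesterol synthesis, through the Insig proteins, and it is a ligand of the LXR receptors, which drive cholesterol efflux. Cyp7b1 turns it into the ligand of the chemoattractant receptor Gpr183. In macrophages Ch25h is known as a gene induced by Toll-like receptor ligands and by interferon. Atf3 is a stress-induced factor of the ATF/CREB family, whose members bind the cyclic AMP response element (CRE), and it is known in macrophages as a repressor of inflammatory genes. The study asks how transcription changes as oxLDL turns macrophages into lipid-laden foam cells, and how loss of Atf3 alters that.

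The 250 bases before the annotated start of Ch25h are shown because the groups differ in a bZIP factor that recognises the CRE. They are from RefSeq on GRCm38.p6, at chr19:34475149-34475398 on the minus strand, written 5′ to 3′ along the gene. Capitals mark the full CRE palindrome TGACGTCA.

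Ch25h promoter: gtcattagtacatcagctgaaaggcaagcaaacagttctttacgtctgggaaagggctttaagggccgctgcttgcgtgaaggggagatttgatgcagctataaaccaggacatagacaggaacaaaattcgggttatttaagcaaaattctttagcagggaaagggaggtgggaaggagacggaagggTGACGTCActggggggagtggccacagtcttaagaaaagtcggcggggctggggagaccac

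The palindrome lay 61 to 54 bases before the start, at positions 34475202 to 34475209 of chromosome 19. It was the only full CRE in the window on either strand. The CRE half-site TGACG was found only inside it, once on each strand. Among 32851 RefSeq mouse promoter windows of the same length, 1.55% held the palindrome, and 1.15% held it within the 100 bases next to the start, as Ch25h did. The half-site, inside a palindrome or not, was in 17.8% of windows. Each of 3 other patterns was searched on both strands and had no match in the Ch25h window. The AP-1 pattern TGANTCA, with any base at N and so looser than the AP-1 site, was present in 6.75% of windows. GAAA repeated after any 2 bases, the core of the interferon-stimulated response element, was in 2.98%. TCACNCCAC, a sterol response element, was in 1.05%. Absence of these letters in 250 bases says nothing of sites elsewhere, and a match is not evidence of binding.

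The other genes of the oxysterol pathway, which make, modify or sense oxysterols, held no full CRE in the same window. The table had promoters of 30 of the 39, among them Cyp27a1 and Cyp46a1, which hydroxylate the cholesterol side chain at other carbons. The half-site was in 8 of the 30, where a gene counted if any of its windows held it. Over all genes, counted so, the half-site was in 19.8% and the full CRE in 1.77%. Whether the pathway differs from these shares was not tested. On chromosome 19 the 5 nearest protein-coding genes on one side of Ch25h are Fas, a death receptor, Acta2, Stambpl1, Ankrd22 and Lipm. On the other side they are Lipa, the lysosomal acid lipase that frees cholesterol from lipoprotein esters, and the interferon-induced genes Ifit2, Ifit3, Ifit1bl1 and Ifit3b. None of the 10 had the palindrome in its window. Counted the same way, the AP-1 pattern was in 4 of the 10 genes (Ankrd22, Fas, Ifit3 and Ifit3b), against 7.82% of all genes. The interferon response core was in 3 (Ifit3, Ifit1bl1 and Ifit3b), against 3.46%. No table used here pairs the array's transcript IDs with gene names, so array levels of these neighbours, of the rest of the oxysterol pathway and of Atf3 itself, as well as of macrophage and other cell type markers, were not analysed here.

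Ch25h was far higher in Atf3-/- than in WT macrophages, with and without oxLDL, and the 4 groups did not overlap on any array. In unstimulated WT cells its log2 level was 8.62, 9.05 and 8.59 on replicates 1, 2 and 3. In unstimulated Atf3-/- cells it was 11.23, 11.25 and 11.12. Every Atf3-/- array lay above every WT array, and the closest pair of arrays was 2.07 apart.

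With oxLDL the WT levels were 7.99, 7.44 and 6.97, all below the unstimulated WT arrays. The Atf3-/- levels with oxLDL were 10.98, 10.72 and 10.95, all below the unstimulated Atf3-/- arrays and all above every WT array. From highest to lowest, the order of the groups was thus unstimulated Atf3-/-, Atf3-/- with oxLDL, unstimulated WT and WT with oxLDL. Neighbours in this order were least separated between the Atf3-/- groups, whose closest arrays were 0.14 apart, a gap of the size of the SD in the oxLDL group. In WT the closest unstimulated and oxLDL arrays were 0.59 apart.

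**Figure D1:**
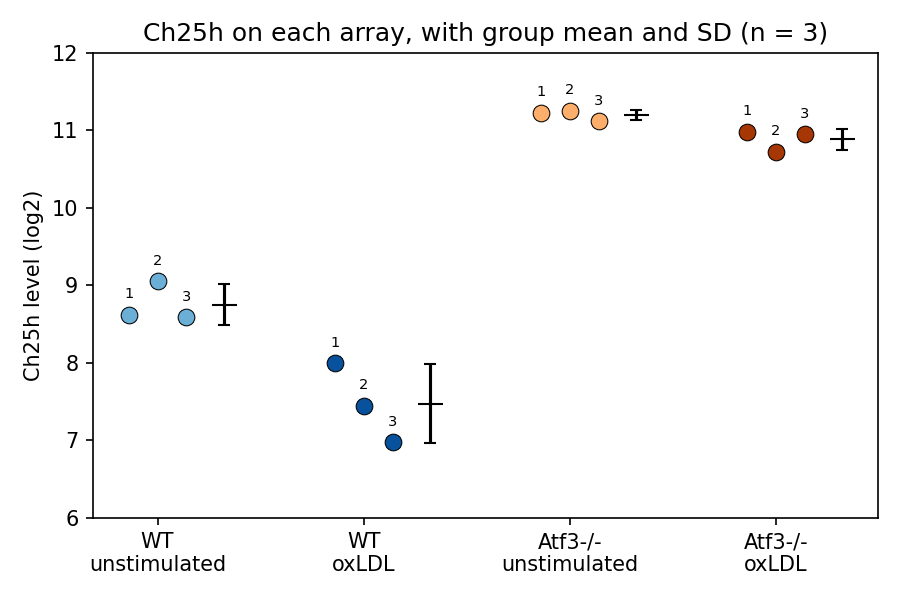
Ch25h level on the log2 scale (vertical axis) on each of 12 arrays in the 4 groups, with numbers giving the replicate; the bar beside each group is its mean with SD (n = 3). All Atf3-/- arrays lie between 10.72 and 11.25, and all WT arrays between 6.97 and 9.05.

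Without oxLDL the group means were 11.20 ± 0.07 in Atf3-/- and 8.75 ± 0.26 in WT (SD, n = 3 each). The difference was 2.45 with a standard error (SE) of 0.16, or 5.45-fold. With oxLDL the means were 10.88 ± 0.14 and 7.47 ± 0.51 (SD, n = 3 each), a difference of 3.41 (SE 0.31), or 10.7-fold. Even the closest arrays of the oxLDL-treated genotypes were 6.63-fold apart, against 4.19-fold for the unstimulated ones. SEs here come from Ch25h's own arrays and cover only the spread of these 3 samples a group, whose separate handling after the mouse the labels do not state.

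Ch25h stood at the edge of the array in both genotype comparisons. The comparison here is with the 39620 probe sets that lay above their array's median on at least 3 of 12 arrays. Ch25h met that rule through 9 arrays, the unstimulated WT and all Atf3-/- ones, and lay below the median on all 3 WT arrays with oxLDL. Its excess in Atf3-/- cells ranked second from the top without oxLDL and first with oxLDL. The 99th percentile of these differences was 1.19 without oxLDL and 1.65 with it, and the medians were -0.02 and -0.0007. An excess of more than 2 in both states was seen for 13 probe sets, or 0.0328%, and no other probe set matched or passed Ch25h in both. These ranks describe the choice of the gene and are not evidence for it.

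**Figure D2:**
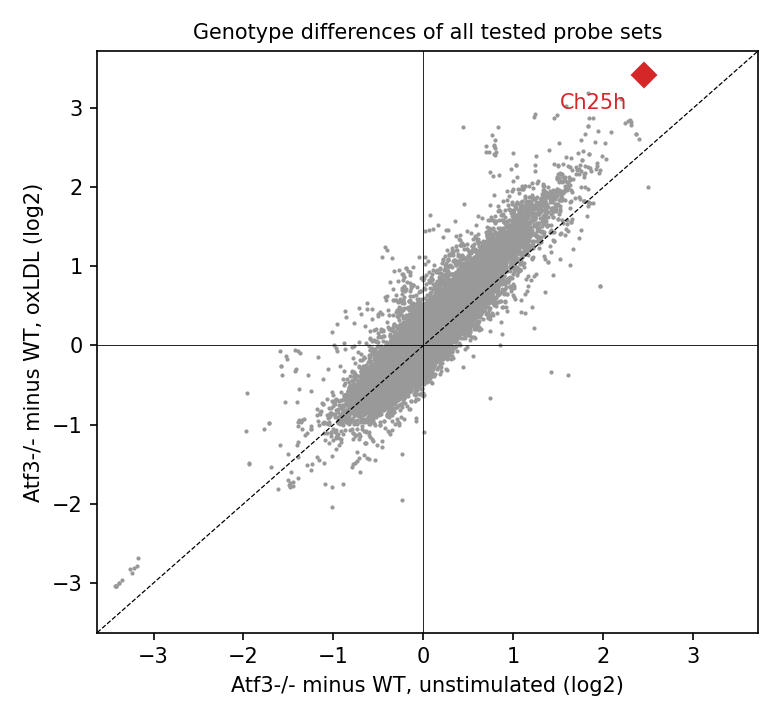
Difference Atf3-/- minus WT in log2 level, without oxLDL (horizontal axis) and with oxLDL (vertical axis), for each of 39620 probe sets (grey) and Ch25h (red diamond); the dashed line marks equal differences. Ch25h, at 2.45 and 3.41, lies at the upper right corner and above the line.

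Of the 13 probe sets with an excess over 2 in both states, Ch25h was the only one that also kept the complete order of the 4 groups without overlap. That order alone was shared by 219 probe sets, or 0.553%. Knockout arrays above WT arrays in both states, with no condition on oxLDL, were found for 7573 probe sets, or 19.1%. A difference of genotype without overlap was therefore common on these arrays. The size of the difference of Ch25h, and its being the only one above, describe a gene chosen by these levels and are not evidence for it. In limma, 16.8% of the 39620 probe sets passed an adjusted p of 0.05 between genotypes without oxLDL and 28.8% with it, 7.18% for oxLDL in WT, 1.52% for oxLDL in Atf3-/- and 0.00252%, a single probe set, for a difference between the oxLDL responses. Such counts moved with single arrays: without WT oxLDL replicate 3 the count for genotype with oxLDL went from 11427 to 19708. The order of the oxLDL counts depended on the fit. Using only the arrays compared, 277 probe sets passed in WT and 9896 in Atf3-/-. Array weights gave 5512 and 15235. Quantile normalization kept the order of the main fit, at 6743 and 1843. The shares for oxLDL therefore do not settle in which genotype more probe sets changed. Array medians lay between 8.42 and 8.57, and the interquartile range of an array was 1.78 to 2.05 except on WT oxLDL replicate 3, at 1.51. No processing day or batch is given in the labels used here, so genotype and a batch that follows it cannot be told apart. Likewise a change of RNA per cell and a change in the share of cells with Ch25h cannot be told apart in these bulk samples.

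With oxLDL the log2 level of Ch25h was lower in both genotypes. In WT the mean difference was -1.28 (SE 0.33), a 2.43-fold lower level, and it placed Ch25h at rank 169 from the bottom of the 39620 probe sets, where the first percentile was -0.99. In Atf3-/- cells it was -0.32 (SE 0.09), or 1.24-fold lower, at rank 1879 from the bottom, inside a first percentile of -0.64. A fall of more than 1 in WT was seen for 386 probe sets, or 0.974%. Ch25h was the only one of them with an excess of more than 2 in Atf3-/- cells in both states.

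**Figure D3:**
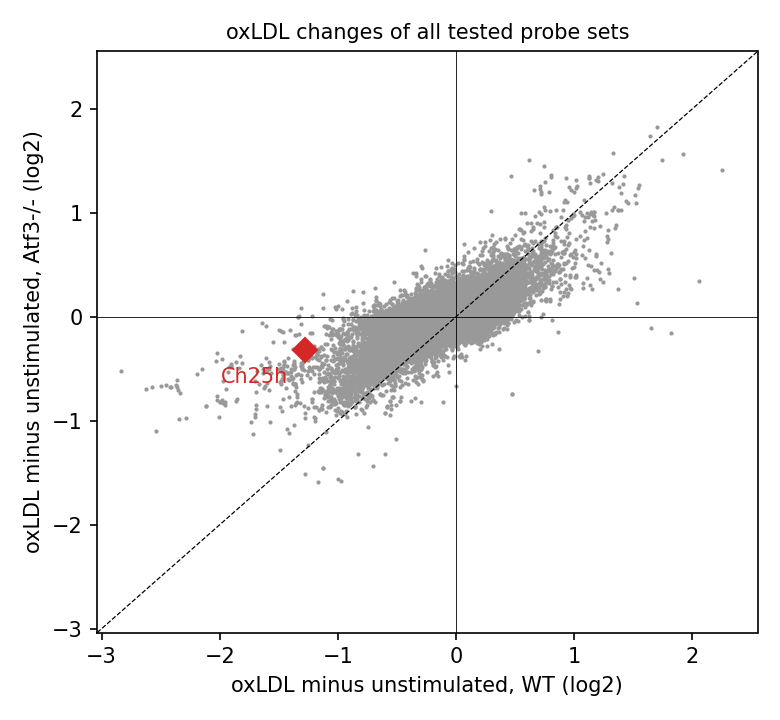
Change in log2 level with oxLDL in WT (horizontal axis) and in Atf3-/- macrophages (vertical axis) for each of 39620 probe sets (grey) and Ch25h (red diamond); the dashed line marks equal changes. Ch25h lies at -1.28 and -0.32, to the left of the main cloud and above the line.

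Which genotype had the larger oxLDL change depended on the scale. On the log2 scale the response of Atf3-/- cells minus that of WT cells was 0.97 (SE 0.34), a smaller relative fall in Atf3-/-. Unlogged, the WT mean went from 435.9 ± 82.7 to 184.9 ± 65.3 array units (SD, n = 3 each), a fall of 57.6%. The Atf3-/- mean went from 2353 ± 113 to 1895 ± 179 (SD, n = 3 each), a fall of 19.5%. In array units the fall was 251.0 (SE 60.8) in WT and 457.6 (SE 122) in Atf3-/-, so the change of Atf3-/- minus that of WT was -206.6 (SE 136.5). The same difference of -206.6 (SE 136.5) is, by arithmetic, the change with oxLDL in the excess of Atf3-/- over WT. In array units that excess was 1917 (SE 80.9) without oxLDL and 1710 (SE 110) with it, while the ratio of the genotypes was higher with oxLDL. The table used here gives no detection call per probe set, so whether the WT levels with oxLDL lay above background was not tested.

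On the log2 scale Ch25h was tightest where it was highest, while its unlogged SDs, given above, were larger in Atf3-/- than in WT. Its SD was 0.26 and 0.51 in the WT groups without and with oxLDL, against 0.07 and 0.14 in the Atf3-/- groups. The median SD of all probe sets compared showed the same order of genotypes, at 0.17 and 0.24 in WT and 0.05 and 0.06 in Atf3-/-. Within each group Ch25h spread more than most, with a lower SD in 80.3% and 92.5% of probe sets in the WT groups and in 71.3% and 92.7% in the Atf3-/- groups. Numbers of 3 arrays per group limit how well any of these SDs is known.

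A pair of WT arrays stood apart from their groups over the whole array. Ch25h was at the level of its group on one of them and at its lowest level on the other. Unstimulated WT replicate 1 lay between the genotypes in most of the probe sets that differed. Its position was set to 0 at the mean of WT replicates 2 and 3 and to 1 at the mean of unstimulated Atf3-/-, for the 1386 probe sets in which those means differed by at least 1. The median position was 0.55, and the 25th percentile was 0.38. Ch25h was at -0.09, at the level of the other WT arrays. Positions at or below it were found in 50 of these probe sets, or 3.61%, and in 12 of the 1223 that were higher in Atf3-/-, or 0.981%. Among the 98 with a difference of at least 2, no other was as low. The means used to pick these probe sets also set the scale, and the cause of the position of this array was not tested.

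**Figure D4:**
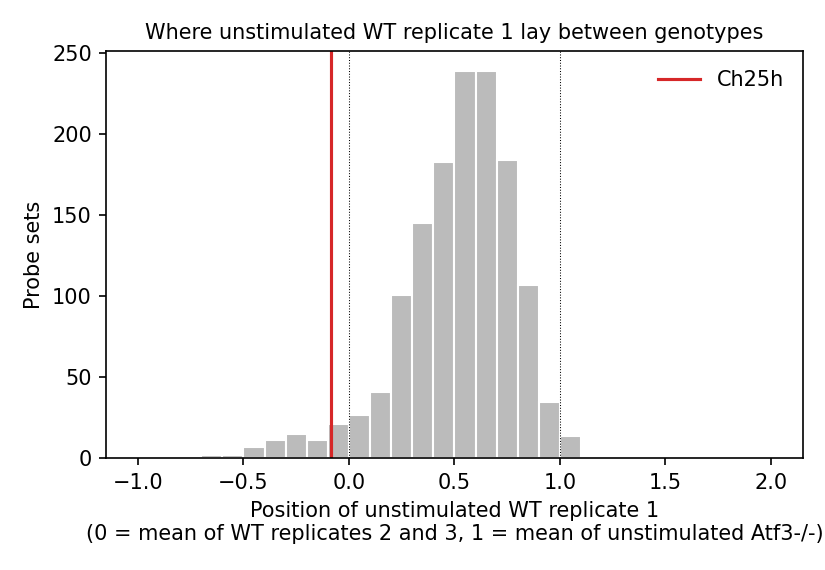
Position of unstimulated WT replicate 1 (horizontal axis) between the other unstimulated WT arrays, at 0, and unstimulated Atf3-/-, at 1, for 1386 probe sets that differed by at least 1; the vertical axis counts probe sets and values beyond the axis are drawn in its end bins. Most bars lie near the median of 0.55, and Ch25h (red line) lies at -0.09.

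The other array, WT oxLDL replicate 3, had the lowest Ch25h level of all 12. Its difference to the mean of the other WT oxLDL arrays was -0.75 on the log2 scale, and that of the median probe set was -0.35. After quantile normalization, which gives all arrays the same distribution, it still had the lowest level, at 6.92 against 7.96 and 7.48. Without both arrays, Ch25h ranked first with oxLDL and at place 22 without it, and 63 probe sets had an excess over 2 in both states, 4 of them, Ch25h included, with the complete order of the groups. With the arrays scaled by quantiles or centred on their medians its places were first and second as on the deposited values, and it was again the only one with both features. Without both arrays the genotype difference of Ch25h was 2.38 without oxLDL and 3.16 with it, and the oxLDL change in WT was -1.10.

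Probe sets that followed Ch25h over the arrays were many. Over the 12 arrays 2417 other probe sets, or 6.1%, had a Pearson r with Ch25h above 0.9, and 262, or 0.661%, had one below -0.9, around a median of 0.02. Of the 518 whose SD over the arrays was at least 0.5 times that of Ch25h, the most alike was ENSMUST00000085891, with r of 0.98. It went from 8.33 to 7.03 with oxLDL in WT and from 10.16 to 9.80 in Atf3-/- (group means), and 1 other ID had identical values. Its excess in Atf3-/- was 1.83 without oxLDL and 2.77 with it, lower than that of Ch25h in both states. The next was ENSMUST00000110977, also with r of 0.98, and with excesses of 1.34 and 1.96.

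Among the same 518, the most opposite pattern was that of ENSMUST00000063690, with r of -0.95. It was lower in Atf3-/- than in WT, at 8.72 against 10.12 without oxLDL and 9.06 against 10.74 with it, and higher with oxLDL in both genotypes. The second was ENSMUST00000082419, with r of -0.93, at 11.01 against 12.02 without oxLDL and 10.68 against 12.72 with it. With oxLDL its mean was higher in WT and lower in Atf3-/-. Once each array was taken as its deviation from its group mean, the likeness to Ch25h was weaker: r was 0.51 for ENSMUST00000085891 and 0.67 for ENSMUST00000110977, where the median of all probe sets was 0.55. These correlations describe 12 arrays, 1 per mouse, on which probe sets share group differences and array-wide shifts, and they carry no p. The IDs have no gene name in the tables used here.

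**Figure D5:**
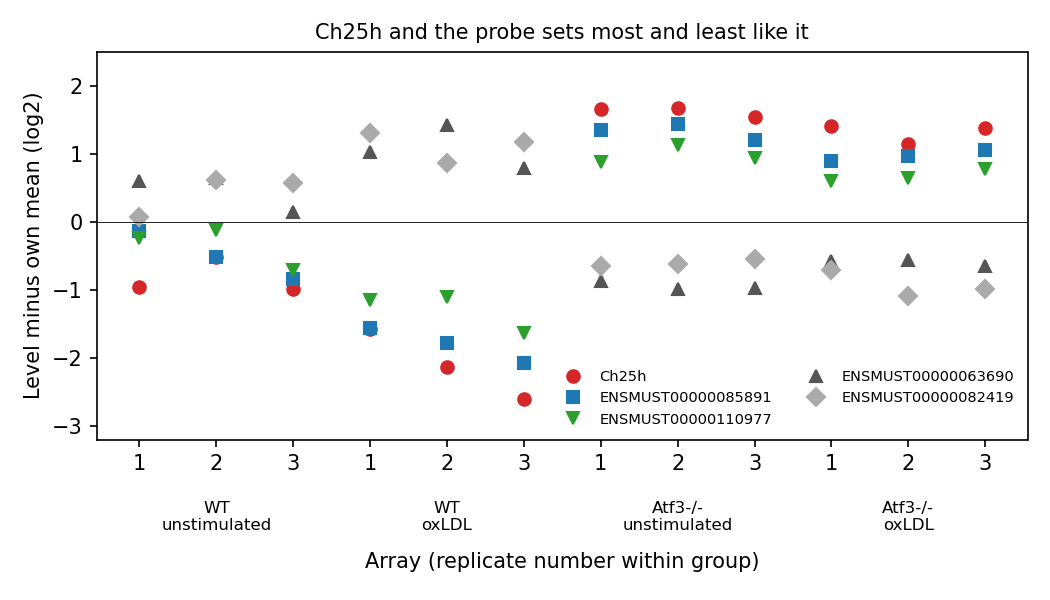
Log2 level minus the probe set's own mean over 12 arrays (vertical axis) by array within the 4 groups (horizontal axis, replicate numbers), for Ch25h, and, among the 518 probe sets whose SD was at least 0.5 times that of Ch25h, the 2 most alike and the 2 most opposite by Pearson r. In unstimulated WT the alike probe sets lie above Ch25h as group means, and so also on replicate 1. Their SDs over the arrays, 1.32 and 0.955, are smaller than the 1.63 of Ch25h. The group means of the 3 have the same order.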

How the data were processed

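Transcript levels were measured on 12 Affymetrix Mouse Exon 1.0 ST arrays. The authors deposited log2 values per transcript-level probe set, per the labels' design text. The submitters' processing notes name PLIER and Affymetrix Power Tools, while background correction, normalization and annotation version are not stated there. Row ENSMUST00000050562 was read as Ch25h, by the rule that selected it; it, the lists and the tests were chosen with earlier results of these data known.

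Groups of 3 came from the titles. The SE of a difference came from the SDs of its own groups. Counts over all probe sets came from limma 3.58.1 in R 4.3.3 (a mean per group over 12 arrays, eBayes with trend, Benjamini-Hochberg adjusted p under 0.05). The rule for named items was likeness by Pearson r over 12 arrays, IDs within 0.15 of each other on every array after centring counted once, shortened to 2 each way since no table pairs the IDs with names. For that reason the gene list and marker list counts were not run. Replicate numbers name separate mice and did not pair arrays: same-numbered arrays had correlations of deviations from -0.31 to 0.51. Scripts were tested on simulated data. For limma these gave a probe set the same spread in all groups, unlike the real arrays, so counts under unequal spread were not tested. Promoter sequences were RefSeq's. The number of arrays limits the precision.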

Additional observations from a re-analysis of the deposited data

Results flagged for a closer look

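A difference between the oxLDL responses of the genotypes passed limma's test for 1 of the 39620 probe sets, with 1149 at an unadjusted p under 0.05. It is listed because that probe set passed the test of the difference itself. Its response was lower in Atf3-/- than in WT. Without WT oxLDL replicate 1 or 2 no probe set passed in that direction, and 2 and 8 passed in the other, so the call depended on single arrays. In the main fit the 1149 are 2.90% of those tested, below the 5% that p-values with no difference anywhere would give on average. That share also moved. It was above 5% without WT oxLDL replicate 2 or 3, at 3394 of 39245 and 3218 of 39273. The same held under quantile normalization (2595 of 39620) and with array weights (4933 of 39620). Leaving out 1 Atf3-/- array lowered the count, to between 637 and 976. The count therefore does not settle whether responses differed in general.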

How the results depend on the processing

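The log2 differences of Ch25h kept their sign and moved by less than the pooled SD between replicates of the groups compared. WT added most to that SD where it took part. This held under quantile normalization, centring on array medians, 16 added before log2, leaving out any array and leaving out both WT arrays that stood apart. For a difference between a pair of groups, leaving out 1 array could not have moved it that far. Leaving out arrays could not reverse its sign either, as the groups did not overlap. For such differences the omission of 1 array was therefore no check. Leaving out 1 array gave 2.36 to 2.60 for genotype without oxLDL, 3.16 to 3.68 with it, -1.54 to -1.03 for oxLDL in WT, -0.36 to -0.24 in Atf3-/- and 0.72 to 1.23 for the difference of responses. That difference reversed on unlogged values, to -206.6 (SE 136.5), an alternative chosen after seeing the data. The list of the 10 most alike probe sets depended on the measure. By Spearman rho 0 of the 10 remained, by deviations from group means 1, and without both WT arrays that stood apart 4.

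Counts in limma moved more, in the order oxLDL in WT, oxLDL in Atf3-/-, genotype without and with oxLDL, and interaction, from 2844, 604, 6640, 11427 and 1. Quantile normalization gave 6743, 1843, 12241, 17946 and 16, array weights 5512, 15235, 12811, 28268 and 387, and leaving out both WT arrays that stood apart 8304, 3567, 18686, 22184 and 105. Centring on medians moved the first, second and last, to 4622, 1199 and 5. Using only the arrays compared gave 277 and 9896 for oxLDL in WT and Atf3-/- and 7477 for genotype with oxLDL. Under this setting and under array weights Atf3-/- had more oxLDL calls than WT, the reverse of the main fit. Leaving out 1 array gave 2097 to 7257, 95 to 200, 2771 to 8864, 7194 to 19708 and 1 to 16. The arrays that moved a count by over 1.5 times were WT oxLDL replicate 3 for oxLDL in WT (7257), each of the 6 for oxLDL in Atf3-/-, all but unstimulated WT replicate 1 for genotype without oxLDL (2771 to 3690), and WT oxLDL replicate 3 and Atf3-/- oxLDL replicates 1 and 3 for genotype with oxLDL (19708, 7194 and 7315). For the interaction they were unstimulated WT replicates 1 and 3 (3 and 4) and WT oxLDL replicates 1, 2 and 3 (2, 8 and 16). The replicate number as a block gave 2828, 552, 6798, 11588 and 1 and moved no count by over 1.5 times. The cause was not tested. For genotype with oxLDL, quantile normalization turned 7896 higher and 3531 lower into 8586 and 9360, and without WT oxLDL replicate 3 they were 8005 and 11703. Depth has no counterpart here; signal over background is not given.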
